A study of Mus musculus with 6 samples.

Results

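The 9 genes described here are known for their expression in the hindgut and tailgut endoderm of the mouse embryo: Foxa1, Foxa2, Shh, Sox17, Epcam, Cldn4, Cldn6, Cldn7 and Cdh1. They were taken by name from a count table of 54134 genes, and each was found as 1 row. Bulk RNA-seq was carried out on the tailbud, all tissue behind the last somite, of C57BL/6 mouse embryos at E10.5, and each of the 6 libraries came from 1 embryo. The stage is that of the sample labels, whereas a heading in the source data of the study gives E9.5. The 4 wildtype embryos carried no transgene. The 2 Cdx2P:Nr6a1 embryos were transient transgenics made by pronuclear injection, in which Cdx2 regulatory sequence drives the coding sequence of the long isoform of Nr6a1, an orphan nuclear receptor that is normally lost from the tailbud at the trunk-to-tail transition. Each Cdx2P:Nr6a1 embryo was therefore a founder with an integration of its own, and no stable line stood behind the group. Cdx2 is itself a gene of hindgut and tailbud. The question put to these genes was whether the endoderm of the tailbud changed when Nr6a1 was maintained.

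The hindgut is the caudal part of the primitive gut tube, and the tailgut is its transient extension into the tailbud, which lies below the notochord and is later removed. Gut endoderm is an epithelium in a region made mostly of mesenchyme: its cells are held together by E-cadherin and sealed by claudins, and it is set up by Sox17 and the Foxa factors. It also secretes Shh, which signals to the mesoderm around the gut. None of the 9 genes is exclusive to endoderm. Foxa2 and Shh are also on in notochord and floor plate, Sox17 in endothelium, and Epcam, the claudins and Cdh1 in surface ectoderm and other epithelia. In bulk tissue, fewer cells of a type and less RNA per cell cannot be told apart.

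The promoters of the adhesion and junction genes are shown first. The highest and the lowest library were the same for all 5 of these genes, as described further on. A link between that order and the promoters was not tested. RefSeq promoter windows, from 250 bases before to 50 bases after a transcription start on GRCm38.p6, matched 6 of the 9 genes by symbol, in 9 windows in all. The 3 without a match were Shh, Sox17 and Cdh1. The letters CACCTG, on either strand and therefore also read as CAGGTG, are the E-box that repressors of the Snail and Zeb families bind in epithelial genes. They are in capitals in the windows of Epcam (chr17:87635729-87636028, plus strand), Cldn4 (chr5:134946885-134947184, minus strand), Cldn6 (chr17:23679115-23679414, plus strand) and the second start of Cldn7 (chr11:69965171-69965470, plus strand), each written 5′ to 3′.
Epcam: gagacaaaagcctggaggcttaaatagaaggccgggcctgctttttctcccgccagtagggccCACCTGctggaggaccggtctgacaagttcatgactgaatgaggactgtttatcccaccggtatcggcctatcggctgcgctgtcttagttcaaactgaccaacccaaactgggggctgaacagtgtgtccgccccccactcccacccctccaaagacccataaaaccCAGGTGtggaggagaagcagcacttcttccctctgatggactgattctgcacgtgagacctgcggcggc
Cldn4: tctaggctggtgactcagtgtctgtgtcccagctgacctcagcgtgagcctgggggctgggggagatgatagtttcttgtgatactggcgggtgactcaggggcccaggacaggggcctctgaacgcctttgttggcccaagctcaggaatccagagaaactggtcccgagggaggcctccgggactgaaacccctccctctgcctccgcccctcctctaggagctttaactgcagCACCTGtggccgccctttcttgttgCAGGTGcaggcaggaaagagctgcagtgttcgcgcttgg
Cldn6: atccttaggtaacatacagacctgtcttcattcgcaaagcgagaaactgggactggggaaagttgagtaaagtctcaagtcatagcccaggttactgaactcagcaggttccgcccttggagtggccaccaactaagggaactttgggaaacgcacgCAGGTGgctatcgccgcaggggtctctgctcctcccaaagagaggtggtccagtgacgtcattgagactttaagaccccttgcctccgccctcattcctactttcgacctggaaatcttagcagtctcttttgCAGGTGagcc
Cldn7: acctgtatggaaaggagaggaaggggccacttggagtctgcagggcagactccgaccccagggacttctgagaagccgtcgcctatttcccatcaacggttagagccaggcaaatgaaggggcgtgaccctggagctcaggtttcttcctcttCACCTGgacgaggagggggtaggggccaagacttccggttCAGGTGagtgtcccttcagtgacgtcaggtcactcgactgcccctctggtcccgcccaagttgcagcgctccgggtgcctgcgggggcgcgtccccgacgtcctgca

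Each of these 4 windows held 2 E-boxes. In the Epcam window they began at bases -187 and -19 from the start, in Cldn4 at -14 and 12, in Cldn6 at -93 and 41, and in the second window of Cldn7 at -97 and -57. The window of Foxa1 held 1, at -23, whereas the first window of Cldn7 and the 3 windows of Foxa2 held 0. Of all 32851 mouse promoter windows of the same length, 20.2% held at least 1 E-box and 2.88% held 2 or more. Among other genes of epithelial junctions and epithelial splicing, 15 of 24 windows (62.5%) held at least 1, in 11 of 18 genes, and 6 of 24 (25%) held 2 or more. The letters AGGTCA (or TGACCT), which nuclear receptors of the Nr6a1 kind bind as a direct repeat, were found once in the Cldn4 window, at -217, and once in each Cldn7 window, at -40 and -31, and 16.3% of all windows held them. A match of letters in a window is a description of sequence, and binding was not measured here.

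The label of the groups was checked on Nr6a1 itself. Nr6a1 was at 3.91, 5.18, 5.53 and 6.89 CPM (its count scaled to a library total of 1e6) in wildtype replicates 1 to 4, and at 23.4 and 33.8 CPM in Cdx2P:Nr6a1 replicates 1 and 2. Both transgenic libraries lay above every wildtype library, with a log2 fold change of 2.41 ± 0.20 (SE) and an adjusted p of 0.00132 by edgeR (quasi-likelihood test, Benjamini-Hochberg adjusted). Total counts lay between 44073460 and 67183802 per library, the lowest and the highest both in the Cdx2P:Nr6a1 group. Of 12733 genes that passed the filter on low counts, 203 (1.59%) were called at an adjusted p under 0.05, 100 (0.785%) higher and 103 (0.809%) lower in Cdx2P:Nr6a1. Nothing in the sources used here says that embryos of a group came from separate litters, and the p-values measure the spread between these embryos.

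All 9 gut endoderm genes passed the filter, and 0 of 9 were called in the main test, beside the background of 1.59% of all genes tested. The count was 0 of 9 also by the likelihood ratio and exact tests of edgeR and by DESeq2, where 3.15%, 3.07% and 3.75% of all genes passed. At an unadjusted p under 0.05 there was 1 gene of 9, Epcam, which was higher, compared with 5.54% of all genes higher. The CPM of the 2 groups overlapped for every one of the 9 genes, whereas in 10.1% of all genes tested the transgenic pair stood above the whole wildtype group and in 8.48% below it. The fitted log2 fold change was above 0 for 7 of the 9 genes, compared with 49.7% of all genes tested, with a median of 0.19 beside -0.00071 over all genes. The median of the 9 was 0.03 without Cdx2P:Nr6a1 replicate 1 and 0.32 without Cdx2P:Nr6a1 replicate 2. The 95% intervals of the 9 changes ran from 0.662-fold, the lower limit for Shh, to 1.73-fold, the upper limit for Foxa2, and none reached a log2 change of 1 or -1. Each adhesion and junction gene had at least 1234 counts in every wildtype library, whereas Sox17, the lowest of the 9, had as few as 158.

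**Figure D1:**
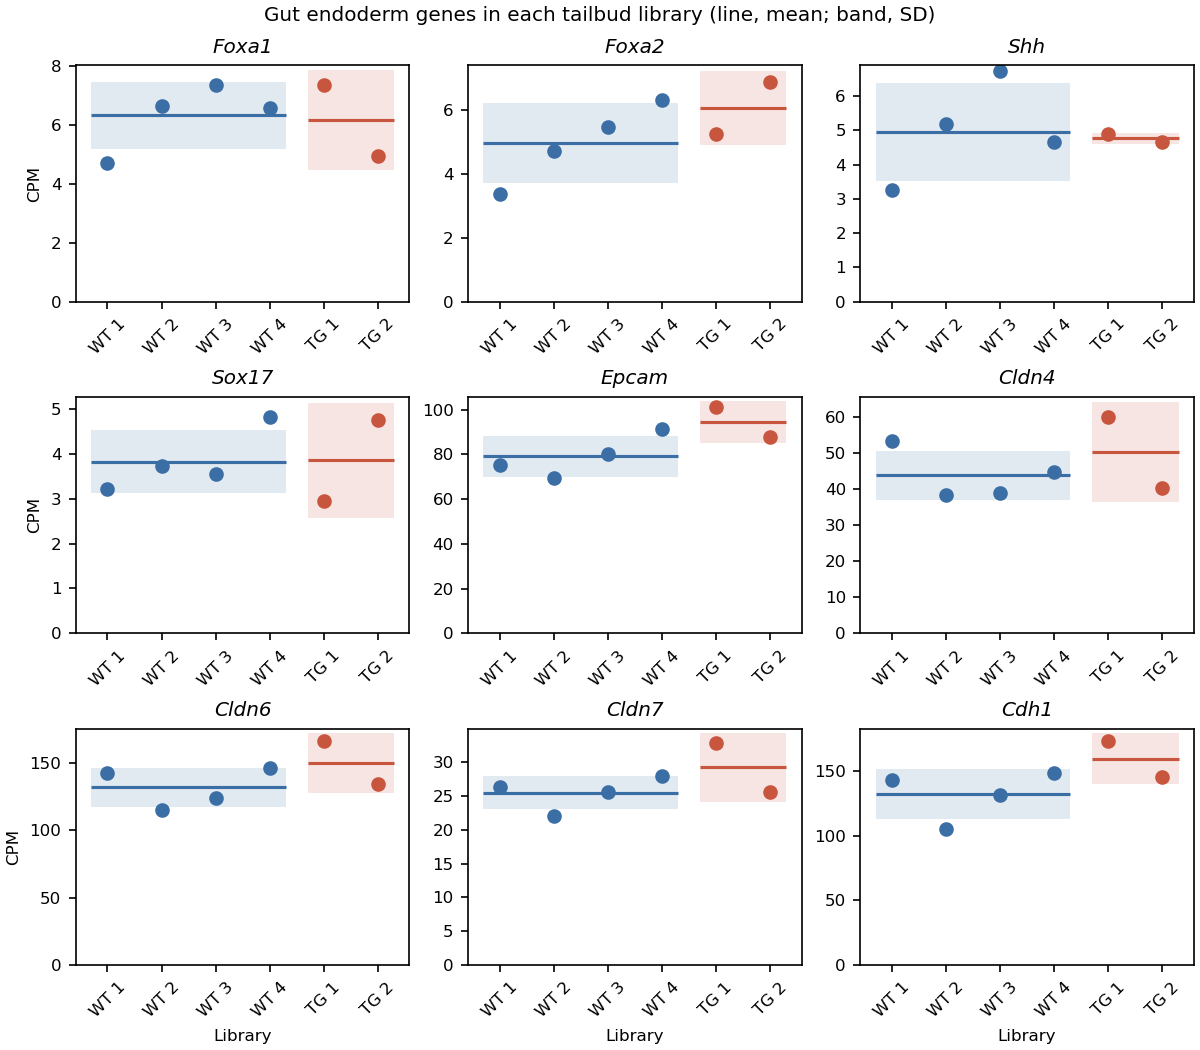
CPM of each of the 9 gut endoderm genes in each tailbud library (points; WT, wildtype; TG, Cdx2P:Nr6a1), with the group mean as a line and the SD as a band, and with each vertical axis starting at 0. In no panel do both transgenic points lie above, or both below, all 4 wildtype points.

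Foxa1 and Foxa2 encode pioneer transcription factors that open chromatin for the endoderm programme. Foxa1 was at 4.72, 6.64, 7.39 and 6.58 CPM in the wildtype libraries and at 7.37 and 4.97 CPM in the Cdx2P:Nr6a1 libraries. The transgenic pair thus spanned nearly the whole wildtype range, and the log2 fold change was -0.05 ± 0.20 (SE; adjusted p = 0.971, edgeR). Foxa2 was at 3.36, 4.71, 5.45 and 6.29 CPM in wildtype and at 5.24 and 6.86 CPM in Cdx2P:Nr6a1. Its second transgenic value was the highest of the 6 and the first lay amid the wildtype values. The log2 fold change of Foxa2 was 0.29 ± 0.22 (SE; adjusted p = 0.786, edgeR), the largest estimate among the 9 genes, with a 95% interval from -0.21 to 0.79. Per kilobase of exon, Foxa1 and Foxa2 were at nearly equal levels in wildtype replicates 1 to 3, with ratios of Foxa1 to Foxa2 of 1.0, 1.0 and 0.965, and in Cdx2P:Nr6a1 replicate 1, at 1.0. The ratio was lower in wildtype replicate 4, at 0.745, and lowest in Cdx2P:Nr6a1 replicate 2, at 0.516, so that the departure occurred in 1 library of each genotype.

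Shh, the secreted ligand of the hedgehog pathway, was at 3.25, 5.19, 6.72 and 4.67 CPM in wildtype and at 4.88 and 4.64 CPM in Cdx2P:Nr6a1. Both transgenic values lay inside the wildtype range, which was wide for this gene (4.96 ± 1.43 CPM, SD, n = 4), and the log2 fold change was -0.07 ± 0.23 (SE; adjusted p = 0.968, edgeR). Sox17, an HMG-box factor needed for definitive endoderm, was at 3.21, 3.72, 3.54 and 4.83 CPM in wildtype and at 2.95 and 4.76 CPM in Cdx2P:Nr6a1. Here the lowest of the 6 values was in transgenic replicate 1, and replicate 2 was next to the highest, for a log2 fold change of 0.02 ± 0.22 (SE; adjusted p = 0.989, edgeR). Part of the exons of both genes lies under other genes: 28.3% of the 2847 exon bases of Shh are shared with 9530036O11Rik and Gm26894 on the opposite strand, and 16.8% of the 4772 of Sox17 with Gm37587. Strand was not used in the counting as far as the counts show, since 0 of 481 genes lying wholly under opposite-strand exons had more than 10 counts, compared with 37.9% of 45232 genes that lie free. Reads of the shared stretches of Shh and Sox17 can therefore not be assigned with certainty, and the other 7 genes share no exon base with another gene.

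Epcam, an adhesion molecule of simple epithelia, was at 75.4, 69.3, 80.3 and 91.3 CPM in wildtype and at 101 and 87.7 CPM in Cdx2P:Nr6a1. Transgenic replicate 1 was the highest library, while replicate 2 lay below wildtype replicate 4. The log2 fold change of Epcam was 0.25 ± 0.10 (SE), with a 95% interval from 0.02 to 0.48, and its unadjusted p of 0.0358 by edgeR became 0.412 after adjustment over all genes. Cdh1, which encodes E-cadherin, the homophilic adhesion molecule of adherens junctions, was at 143, 105, 132 and 149 CPM in wildtype and at 173 and 146 CPM in Cdx2P:Nr6a1. Transgenic replicate 2 was again inside the wildtype range, and the log2 fold change was 0.26 ± 0.13 (SE; adjusted p = 0.538, edgeR). Epcam and Cdh1 were the 2 of the 9 genes whose call depended on the filter. With no filter on low counts they passed at adjusted p-values of 0.0023 and 0.000699, at log2 fold changes of 0.25 and 0.26, where 2.69% of 32579 genes tested passed.

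Cldn4, Cldn6 and Cldn7 encode claudins, the transmembrane proteins of tight junctions. Cldn4 was at 53.3, 38.6, 38.9 and 44.7 CPM in wildtype and at 60.2 and 40.4 CPM in Cdx2P:Nr6a1. Cldn6 was at 142, 115, 124 and 146 CPM in wildtype and at 166 and 135 CPM in Cdx2P:Nr6a1. Cldn7 was at 26.4, 22.1, 25.6 and 27.9 CPM in wildtype and at 32.8 and 25.6 CPM in Cdx2P:Nr6a1. The 3 claudins shared 1 pattern, in which transgenic replicate 1 stood above all wildtype libraries and replicate 2 among them. The log2 fold changes were 0.19 ± 0.17 for Cldn4, 0.18 ± 0.11 for Cldn6 and 0.19 ± 0.12 for Cldn7 (SE), with adjusted p-values of 0.839, 0.678 and 0.689 by edgeR. No stretch of 75 bases, the read length, in the exons of these claudins recurs in another gene, so that reads of one claudin could not be counted for another by identity of sequence. An exact permutation test over the 6 libraries (two-sided, 15 arrangements, smallest possible p 0.0667) gave p between 0.20 for Epcam and Cdh1 and 1 for Sox17 over the 9 genes, none adjusted.

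**Figure D2:**
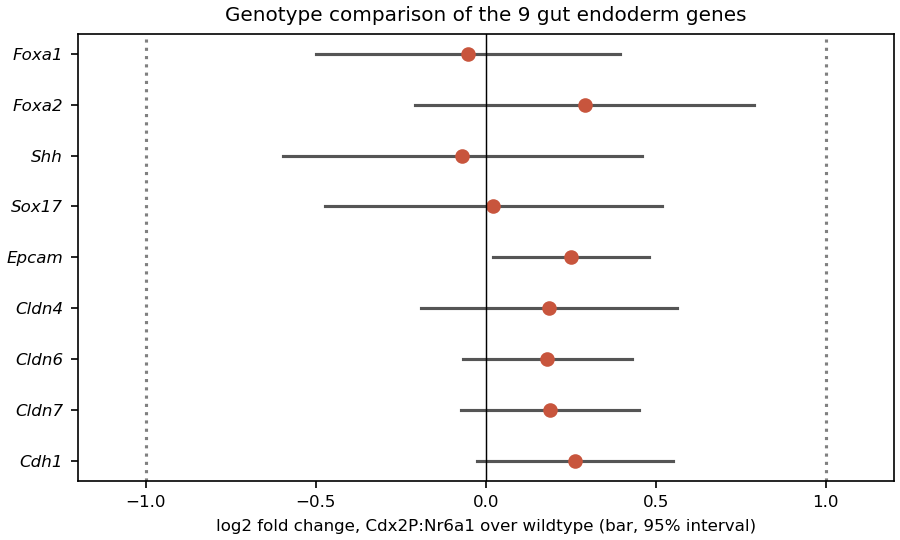
Fitted log2 fold change of Cdx2P:Nr6a1 over wildtype for the 9 genes (points) with 95% intervals (bars), on a linear axis in log2 units, with dotted lines at 1 and -1. The estimates lie between -0.07 for Shh and 0.29 for Foxa2, only the interval of Epcam, 0.02 to 0.48, leaves out 0, and no interval reaches a dotted line.

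The adhesion and junction genes ranked the libraries in a shared way. For all 5 adhesion and junction genes, Cdx2P:Nr6a1 replicate 1 was the highest of the 6 libraries and wildtype replicate 2 the lowest. The summed CPM of the 5 genes was 441, 350, 400 and 459 in wildtype and 534 and 434 in Cdx2P:Nr6a1. The second transgenic library thus lay inside the wildtype range in sum and above all wildtype libraries in 0 of 5 genes. For comparison, Cdx2P:Nr6a1 replicate 1 exceeded all wildtype libraries in 3479 of the 12733 genes tested and replicate 2 in 2541. The factor and ligand genes had another order. Their summed CPM was 14.5, 20.3, 23.1 and 22.4 in wildtype and 20.4 and 21.2 in Cdx2P:Nr6a1, and wildtype replicate 1 was the lowest wildtype library for all 4 of Foxa1, Foxa2, Shh and Sox17.

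**Figure D3:**
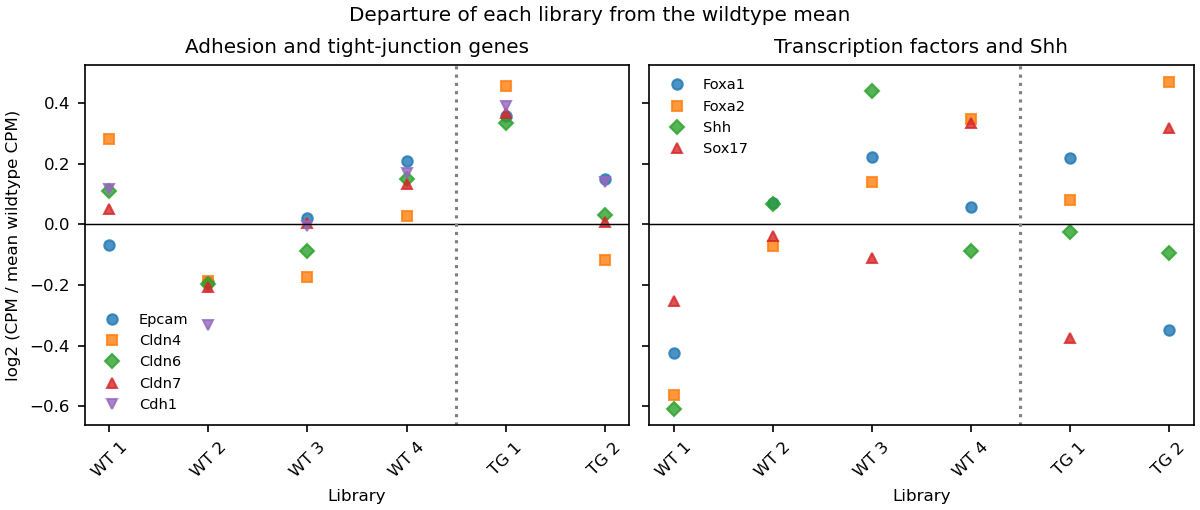
Log2 ratio of the CPM in each library to the wildtype mean, for the 5 adhesion and junction genes (left) and for Foxa1, Foxa2, Shh and Sox17 (right), with libraries along the horizontal axis and a dotted line between the genotypes. On the left the points are all below 0 in wildtype replicate 2 and all above 0 in Cdx2P:Nr6a1 replicate 1. On the right all 4 points of wildtype replicate 1 lie below 0 and the transgenic points scatter to both sides.

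Ratios of genes within a library, from which depth cancels, were taken for a pair of claudins and for the pair of adhesion molecules. The ratio of Cldn7 to Cldn6, per kilobase of exon, was 0.143 to 0.159 in the wildtype libraries and 0.153 and 0.147 in the Cdx2P:Nr6a1 libraries. The ratio of Epcam to Cdh1, each per kilobase of exon, was 1.18 to 1.48 in wildtype and 1.31 and 1.35 in Cdx2P:Nr6a1. Both transgenic ratios lay inside the wildtype range for these 2 pairs and for Cldn4 to Cldn7. In each of the other 5 pairs of the 8 compared, 1 transgenic library fell below the lowest wildtype ratio. In Cdx2P:Nr6a1 replicate 2 this was Cldn6 to Cdh1 at 2.81, beside a wildtype minimum of 2.86, Cldn4 to Cldn6 at 0.249 beside 0.254, Shh to Foxa2 at 0.786 beside 0.862, and Foxa1 to Foxa2 as above. In Cdx2P:Nr6a1 replicate 1 it was Sox17 to Foxa2, at 0.336 beside 0.388. The groups overlapped in all 8. 

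The spread between wildtype embryos was wide for all 9 genes. The coefficient of variation over the 4 wildtype libraries was 28.9% for Shh, 25.2% for Foxa2, 18.3% for Sox17 and 17.9% for Foxa1, where the median of all genes between 2 and 10 CPM was 10.7%. It was 15.7% for Cldn4, 14.7% for Cdh1, 11.8% for Epcam, 11.2% for Cldn6 and 9.64% for Cldn7, where the median of genes between 20 and 200 CPM was 4.71%. Each of the 9 genes therefore varied more between wildtype embryos than the median gene of like level.

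Levels of different genes were compared per kilobase of exon not shared with another gene (RPKM), as means over the wildtype libraries. Cldn6 was the highest, at 87.6 ± 9.82 RPKM (SD, n = 4), followed by Epcam at 38.8 ± 4.58, Cdh1 at 28.9 ± 4.24, Cldn4 at 24.2 ± 3.8 and Cldn7 at 13.1 ± 1.26 RPKM. Below a gap of 5.38-fold came Shh at 2.43 ± 0.70, Foxa2 at 2.09 ± 0.53, Foxa1 at 1.90 ± 0.34 and Sox17 at 0.964 ± 0.176 RPKM. The ranges of Cdh1 and Cldn4 overlapped, as did those of Shh and Foxa2 and those of Foxa2 and Foxa1, but Cdh1 was above Cldn4 within each of the 4 wildtype libraries. Shh was above Foxa2 in 3 of the 4 and Foxa2 above Foxa1 in 2 of the 4, so the order of these was not separated by the spread between embryos. Over its full exon length Shh would be at 1.74 RPKM, below Foxa1, and its place among the 3 was not settled.

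The genes whose profile over the 6 libraries was most like the mean profile of the 9 genes were Frem2, Nufip1, 1700021F05Rik, Chchd3 and Ikzf2, with Pearson coefficients between 0.973 and 0.998, as a description over libraries that share depth and dissection. Of all genes tested, 117 had a coefficient above 0.9.

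Genes of other gut endoderm, 20 in all and 10 of them above the filter, gave 0 calls, with 5 higher and 5 lower, and Isx and Cer1 were at 0 in every library. Apela, a peptide hormone gene of early endoderm, was at 43.7 to 52.1 CPM in wildtype and at 52.3 and 45.8 CPM in Cdx2P:Nr6a1. Genes of secreted proteins of the visceral endoderm, the extraembryonic layer that forms the yolk sac and in part joins the gut, behaved unlike the 9 genes. Afp, alpha-fetoprotein, was at 5.04, 45.1, 0.0358 and 23.9 CPM in wildtype and at 3.09 and 20.2 CPM in Cdx2P:Nr6a1. Apoa1 and Ttr, named after their values were seen, followed the same order in the wildtype libraries, with 19.4 and 21.4 CPM in replicate 2 and 0.197 and 0.0179 CPM in replicate 3. Wildtype replicate 2, the highest in these secreted-protein genes, was the lowest in the 5 adhesion and junction genes. The part of this in the values of the 9 genes was not tested.

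**Figure D4:**
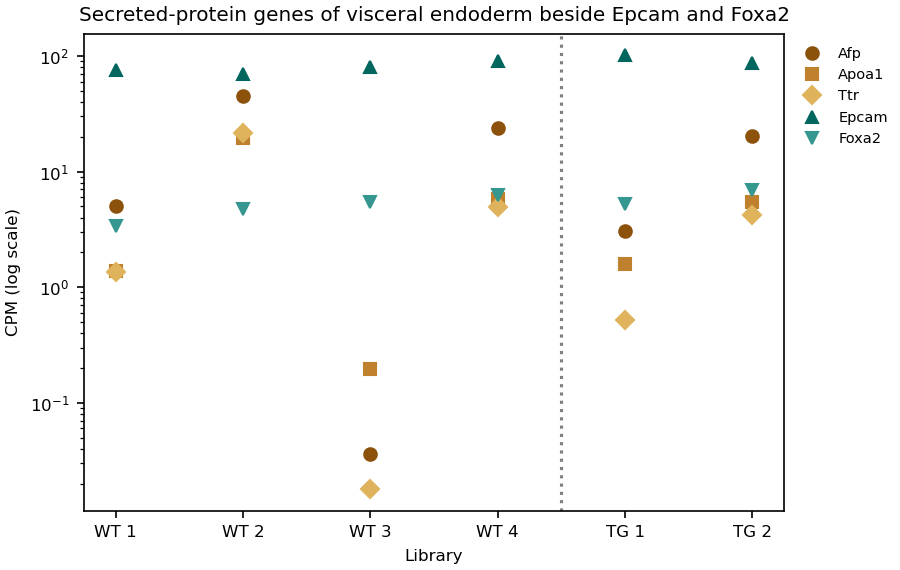
CPM on a log axis of Afp, Apoa1 and Ttr, secreted-protein genes of visceral endoderm, and of Epcam and Foxa2, in each of the 6 libraries, with a dotted line between wildtype (WT) and Cdx2P:Nr6a1 (TG). Afp runs from 0.0358 to 45.1 CPM across the wildtype libraries, whereas Epcam stays between 69.3 and 101 and Foxa2 between 3.36 and 6.86 CPM over all 6.

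Other epithelial genes lay on the same side as the adhesion members. Of 32 genes of epithelial junctions and epithelial splicing, 30 were tested and 27 had a log2 fold change above 0, with a median of 0.24. Without Cdx2P:Nr6a1 replicate 1 the median was 0.096 and 23 were above 0, and without Cdx2P:Nr6a1 replicate 2 the median was 0.34. Krt18, a keratin of simple epithelia, was the 1 gene of the list that was called in the main test, beside 0.785% of all genes called higher. It was at 52.0, 47.0, 47.5 and 53.0 CPM in wildtype and at 64.7 and 64.5 CPM in Cdx2P:Nr6a1, both above every wildtype library, and rose by a log2 fold change of 0.37 ± 0.06 (SE; adjusted p = 0.0264, edgeR). Its partner keratin Krt8 was at 65.0 to 77.6 CPM in wildtype and at 99.2 and 87.0 CPM in Cdx2P:Nr6a1 (adjusted p = 0.0814, edgeR), and Dsp, desmoplakin of the desmosome, at 144 to 174 and at 206 and 189 CPM (adjusted p = 0.149, edgeR). At an unadjusted p under 0.05 there were 12 of 30, all higher, compared with 5.54% of all genes higher. Both transgenic libraries were above all wildtype libraries for 14 of 30, beside the 10.1% over all genes. By DESeq2 and by the exact and likelihood ratio tests of edgeR 3 genes were called, Krt18, Krt8 and Dsp, and with no filter on low counts 8. The call of Krt18 was lost without wildtype replicate 2 or without wildtype replicate 3, where 148 and 146 of all genes were called in place of 203. It was kept without wildtype replicate 1 or 4. The 2 transgenic values of Krt18 were nearly equal, so its rise did not come from 1 transgenic library alone. Cdx2P:Nr6a1 replicate 1 was the highest library for 25 of the 30 genes, compared with 22.9% of all genes, and wildtype replicate 2 the lowest for 20 of 30, compared with 12.4%.

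Of the mesenchymal cadherins, vimentin and repressors of Cdh1, 9 genes in all, 8 were tested and 0 were called, with 3 higher and 5 lower. Cdh2, N-cadherin, was at 251 to 275 CPM in wildtype and at 264 and 275 CPM in Cdx2P:Nr6a1, and Vim at 334 to 358 CPM and at 343 and 338 CPM. Twist2, a repressor of Cdh1, was at 3.11 to 4.05 CPM in wildtype and at 2.43 and 2.16 CPM in Cdx2P:Nr6a1, both below every wildtype library, with a log2 fold change of -0.66 ± 0.16 (SE; adjusted p = 0.106, edgeR), and was called by the exact and likelihood ratio tests of edgeR and with no filter on low counts. Of the other genes of the hedgehog pathway, 15 of 19 were tested and 0 were called, with 11 higher and 4 lower. Ptch1, the receptor of Shh and itself a target of the pathway, was at 208 to 223 CPM in wildtype and at 238 and 236 CPM in Cdx2P:Nr6a1, with a log2 fold change of 0.12 ± 0.04 (SE) and an adjusted p of 0.359 by edgeR. Boc, a co-receptor, was at 27.6 to 31.5 CPM and at 36.9 and 34.0 CPM (adjusted p = 0.152, edgeR). Smo, the transducer of the signal, was at 228 to 241 CPM in wildtype and at 244 and 230 CPM in Cdx2P:Nr6a1.

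**Figure D5:**
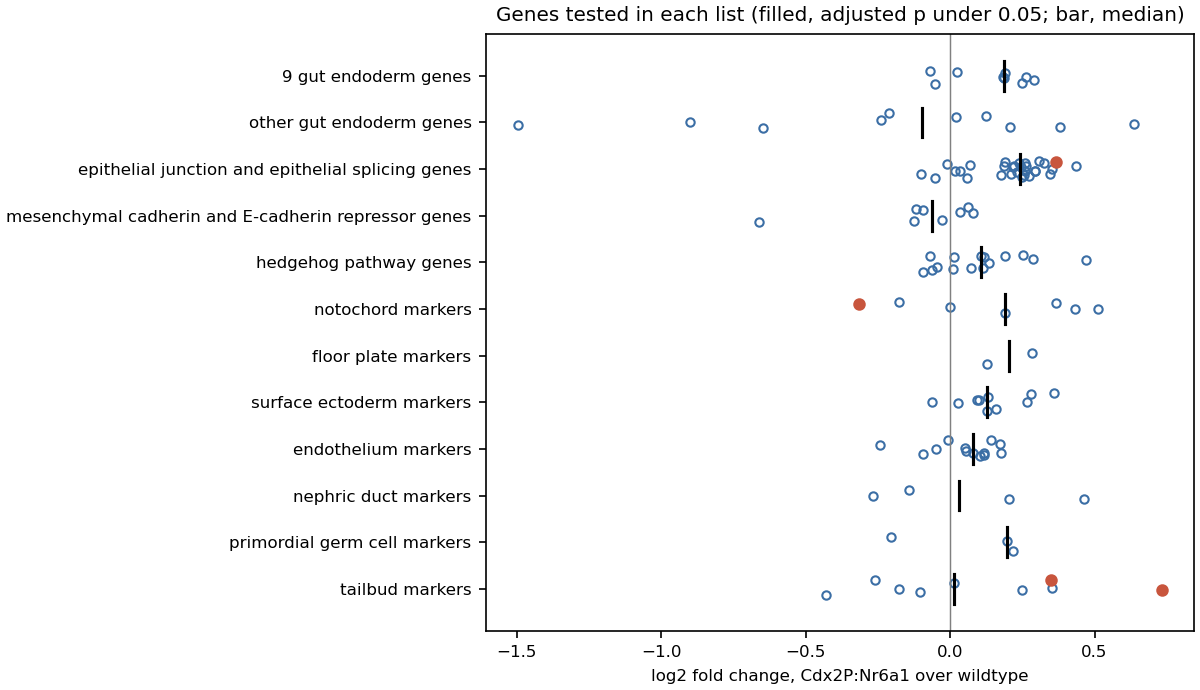
Log2 fold change of Cdx2P:Nr6a1 over wildtype of every tested gene in the 9 gut endoderm genes and in 11 other lists (points; filled, adjusted p under 0.05; black bar, median). The median of the 9 genes is 0.19 and that of the epithelial list 0.24, and the filled points are Krt18, Bicc1, Cdx2 and Cyp26a1.

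Markers of the other tissues that share these genes were read beside them. Surface ectoderm, which also makes Epcam, claudins and Cdh1, gave 0 calls of 10 tested, 9 of them with a log2 fold change above 0. The summed CPM of its 11 markers was 227 to 318 in wildtype and 275 to 327 in Cdx2P:Nr6a1, and wildtype replicate 2 was the lowest wildtype library for 10 of 10. Nephric duct, another epithelium, gave 0 calls of 4 tested, with 2 higher and 2 lower and a median log2 fold change of 0.029. The summed CPM of its 7 markers was 33.8 to 37.2 in wildtype and 39.3 to 42.9 in Cdx2P:Nr6a1. Pax2 was at 9.87 to 11.9 CPM in wildtype and at 14.6 and 15.9 CPM in Cdx2P:Nr6a1 (adjusted p = 0.0707, edgeR). Ret went the other way, at 6.56 and 6.98 CPM in Cdx2P:Nr6a1, both below every wildtype library (log2 fold change -0.14). For Foxa2 and Shh, the 7 notochord markers were 4 higher and 3 lower, with a median log2 fold change of 0.19. Bicc1 was the 1 call, beside 0.809% of all genes called lower. It fell by 0.32 on the log2 scale (adjusted p = 0.0463, edgeR), but was not called when any of the 4 wildtype libraries was left out. Col2a1 was at 83.7 to 96.3 CPM in wildtype and at 108 and 145 CPM in Cdx2P:Nr6a1 (log2 fold change 0.51 ± 0.11, SE; adjusted p = 0.0577, edgeR). DESeq2 and the exact and likelihood ratio tests of edgeR called Col2a1 as well as Bicc1. The summed CPM of the 7 markers was 1189 to 1403 in wildtype and 1132 to 1292 in Cdx2P:Nr6a1. Of 6 floor plate markers 2 were tested, with 0 calls, and the sum was 14.2 to 17.3 in wildtype and 14.3 to 20.3 in Cdx2P:Nr6a1. For Sox17, the 13 endothelial markers gave 0 calls of 13 tested, with sums of 289 to 354 and 302 to 367 CPM. Primordial germ cells, which pass through the hindgut epithelium as they migrate, had 3 of 8 markers tested and 0 calls, with sums of 36.8 to 43.5 and 41.7 to 46.1 CPM. The part of these tissues in the values of the 9 genes was not tested.

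Among 9 tailbud markers, 2 were called, both higher, beside 0.785% of all genes called higher, and 4 of the 9 had a log2 fold change below 0, 2 of them at an unadjusted p under 0.05. Tbx6, lower, and Nkx1-2, higher, were called as well by DESeq2 and by the exact and likelihood ratio tests of edgeR, but not in the main test. Cdx2, a hindgut and tailbud homeobox gene whose regulatory sequence drives the transgene, was at 286 to 303 CPM in wildtype and at 410 and 347 CPM in Cdx2P:Nr6a1, with a log2 fold change of 0.35 ± 0.07 (SE; adjusted p = 0.034, edgeR). Cyp26a1, which degrades retinoic acid, was at 185 to 237 CPM in wildtype and at 404 and 281 CPM in Cdx2P:Nr6a1, with a log2 fold change of 0.73 ± 0.13 (SE; adjusted p = 0.0315, edgeR). When 1 library at a time was left out, Cdx2 was called only without Cdx2P:Nr6a1 replicate 2, and Cyp26a1 only without that library or without wildtype replicate 3. In both genes transgenic replicate 1 was higher than replicate 2, the same order as in the 5 adhesion and junction genes. T, the brachyury gene of the tailbud, stood at 975 to 1189 CPM in wildtype and at 1059 and 886 CPM in Cdx2P:Nr6a1, of which the second was below every wildtype library (log2 fold change -0.18 ± 0.09, SE; adjusted p = 0.564, edgeR).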

How the data were processed

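Tailbud RNA of 6 embryos was made into stranded mRNA libraries by the study, and reads were aligned to mm10 with STAR and tested with edgeR, per the labels. The deposited table holds raw counts per gene as the authors made them, with no normalization, the exon coordinates and 0 columns of other samples. The counting program and its use of strand are not given in the sources used here. A second deposited table, with the authors' own fold changes and p-values for called genes, was not used.

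Groups follow the labelled genotype. A gene was tested if 2 or more libraries had over 10 counts and over 2 CPM. Libraries were scaled by TMM, and the genotypes were compared in edgeR 4.0.16 (quasi-likelihood, R 4.3.3), without covariates, and with Benjamini-Hochberg adjustment over all 12733 genes at 0.05. Printed CPM and RPKM use library totals, whereas fold changes use TMM. The biological coefficient of variation was 9.40%. Scripts were tested on simulated data. The 16 alternatives were other tests (likelihood ratio, exact, DESeq2 1.42.0, limma 3.58.1 voom, robust), scalings and filters, the replicate block and each library left out. Promoters came from RefSeq tables on GRCm38.p6, and exons were compared with GENCODE M21. Python 3.11.15 drew the plots.

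The genes and lists were chosen with earlier results of these data known. Named genes were drawn from the 9 members, Nr6a1, for each list the genes called or, with none, the 3 with the highest wildtype CPM, and the genes most like the members. Not all of these are printed. Among those left out are Elf3, Sufu, Ntn1, Sfn, Perp, Wnt6, Cdh5, Kdr, Pecam1, Emx2, Kit and Dnd1. Others were named after their values were seen: Apoa1, Ttr, Krt8, Dsp, Boc, Twist2, Col2a1, Tbx6, Nkx1-2 and T, and Isx and Cer1 as genes at 0.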

Additional observations from a re-analysis of the deposited data

Results flagged for a closer look

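In the 4 wildtype libraries, 54 named or listed genes were examined for a library that stood apart from the other 3 by Dixon's test at 95%, which chance alone passes in about 1 of 20 groups. None of the 9 gut endoderm genes passed. Cdh11, a mesenchymal cadherin, was at 175 CPM in its lowest wildtype library. Spon1, a floor plate gene, was at 3.38 CPM in its highest. Prdm1, a gene of primordial germ cells, was at 3.32 CPM in its lowest.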

How the results depend on the processing

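The count of gut endoderm genes called was 0 of 9 under 14 of the 16 alternatives. It was 2, Epcam and Cdh1, with no filter on low counts, where 2.69% of 32579 genes passed (876 in place of 203), and 2, the same genes, with the replicate block (adjusted p = 0.00608 and 0.00714, edgeR), where 442 genes passed. Same-numbered samples are different embryos, and nothing in the sources used here pairs them. Their deviations from the group means correlated at 0.27 and -0.23. With 2 Cdx2P:Nr6a1 libraries, the deviations of 1 mirror those of the other, so these values cannot decide whether samples were paired. The cause was not tested in either case. Of all genes, 477 passed in DESeq2, 391 in the exact and 401 in the likelihood ratio test of edgeR, and 61 when either Cdx2P:Nr6a1 library was left out. A lone Cdx2P:Nr6a1 library is assumed to vary like the wildtype. Leaving out 1 library at a time, log2 fold changes ran from -0.12 to 0.45 for Cldn4, negative without Cdx2P:Nr6a1 replicate 1, from -0.35 to 0.21 for Foxa1, from -0.23 to 0.11 for Shh and from -0.38 to 0.32 for Sox17. In the same fits Epcam lay between 0.15 and 0.34, Cdh1 between 0.14 and 0.38, Cldn6 between 0.03 and 0.32, Cldn7 between 0.0073 and 0.36 and Foxa2 between 0.07 and 0.47. With the replicate block Foxa1 was at 0.094, Shh at 0.19, Epcam at 0.37, Cdh1 at 0.36 and Foxa2 at 0.58. Of the epithelial junction and splicing genes 10 were called with the block, and 1 without it. The 9 genes had a median of 0.03 when Cdx2P:Nr6a1 replicate 1 was left out and of 0.32 when replicate 2 was. The group held 2 transgenic founders, and Foxa1, Foxa2, Shh and Sox17 had between 158 and 413 counts per wildtype library. The printed intervals give the changes that these data do not exclude.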
